A study of Mus musculus with 6 samples.

Results

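The 10 genes described here are parts of the Notch pathway that vessels use: the receptors Notch1 and Notch4, the ligands Dll1, Dll4, Jag1 and Jag2, the DNA-binding factor Rbpj, and the target genes Hes1, Hey1 and Hey2. They were chosen by gene symbol, each symbol matched 1 Ensembl gene, and the 10 make up a small share of the 53465 genes in the deposited count matrix. The source was cortical brain endothelial cells (BECs) of males, 8 to 12 weeks old, and both groups carried tie2-Cre, ai9 and rpl22HA/HA. Tie2 drives Cre in endothelium, but also in some blood cells. Once recombined, ai9 yields a red fluorescent protein, and rpl22HA/HA yields ribosomes with an HA tag, by which their messenger RNA can be pulled down. The mice had been injected with pentylenetetrazol (PTZ), a blocker of GABA-A receptors that provokes seizures, or with phosphate-buffered saline (PBS). There are 3 libraries per group, numbered 1, 2 and 4. The series' title speaks of a translatome while the labels give total RNA. No source used here gives the isolation step, the PTZ dose or the time of collection.

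Notch is a receptor that signals by being cut. A ligand on a neighbouring cell, of the Delta-like or Jagged family, pulls on the receptor, proteases release its intracellular part, and that part joins Rbpj on DNA and turns on target genes, chief among them the Hes and Hey repressors. In vessels Dll4 and Notch1 hold back sprouting, Notch4 is a receptor found mainly in endothelium, and Dll4, Jag1, Hey1 and Hey2 are known from arteries. In the mural cells around vessels Notch3 and Heyl are the better known members.

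Gene counts summed to 11691668 to 15406967 in the PTZ libraries and 11107481 to 14932860 in the PBS libraries. The labels do not say whether each library is from its own animal, so p-values measure library-to-library spread, part or all of which may be technical. All 10 endothelial markers looked at had reads in every library. Their summed level was 9594, 17225 and 11041 CPM in PTZ libraries 1, 2 and 4, against 10193, 14614 and 11184 CPM in PBS libraries 1, 2 and 4. CPM is a gene's read count scaled to the size of its library, here after TMM, a correction for library composition. Markers of pericytes had a smaller sum, which was 530.4, 152.1 and 590.5 CPM in PTZ and 155, 157 and 277 CPM in PBS, with all 9 markers above 0 in every library. Smooth muscle markers summed to 1850.1, 1058 and 1667 CPM in PTZ and to 510.1, 1041 and 1105 CPM in PBS, and fibroblast markers to 271, 87.9 and 288 CPM in PTZ and 95.7, 92.9 and 150.1 CPM in PBS. The 9 pericyte markers, the 6 tested of 7 smooth muscle markers and the 7 fibroblast markers all had positive log2 fold changes, with medians of 1.12, 1.01 and 1.35, where 52.7% of all genes were positive. Higher in PTZ at an unadjusted p under 0.05 were 3 pericyte, 2 smooth muscle and 3 fibroblast markers, against 3.83% of all genes. All 7 microglia markers had negative values, with a median of -0.44. Of these 2 stood at an unadjusted p under 0.05, against 3.38% of all genes lower in PTZ. The microglia markers summed to 962, 1369.9 and 1550.1 CPM in PTZ and to 1899.6, 1573 and 1862 CPM in PBS. Of the 10 arterial markers 8 were positive, with a median of 0.16. At an unadjusted p under 0.05 stood 1 of them, against 3.83% of all genes higher in PTZ. It was the gap junction gene Gja4 (log2 fold change 1.08, SE 0.42, adjusted p = 0.664), chosen after its value was seen. The sum of the arterial markers was 4424, 5665 and 4239 CPM in PTZ and 3047, 5592 and 4275 CPM in PBS. The 10 endothelial markers had a median of 0.15 with 7 positive, and 7 capillary markers 0.15 with 5 positive. Venous markers, 7 in number, had a median of -0.05 with 3 positive. A median like the arterial one was thus also seen in the endothelial and capillary lists. In such bulk libraries fewer cells of a type and less RNA per cell cannot be told apart.

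Across all genes, edgeR's quasi-likelihood test called 0 of 13768 genes at an adjusted p under 0.05, in either direction, and the smallest adjusted p was 0.283. At an unadjusted p under 0.05 stood 993 genes, 7.21% of those tested. DESeq2 called 76 genes at the adjusted threshold and limma-voom called 1.

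All 10 Notch genes had enough reads to be tested, and none passed the adjusted threshold, where 0% of all genes were called in each direction. The unadjusted p was under 0.05 for 1 of the 10, Notch4, against 7.21% of all genes tested. The groups did not overlap for 2 of the 10, Rbpj and Hey1, against 14.3% of all genes. In both, every PTZ library lay above every PBS library, as for 7.30% of all genes. The log2 fold change was positive for 8 of the 10, against 52.7% of all genes, with a median of 0.29 against 0.03 over all genes. Dll4 and Hey2 were so close to 0 that their sign turned in several settings, and between 6 and 8 of the 10 were positive over all settings tried. Shares near those of all genes give no result about these 10 as a set.

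**Figure D1:**
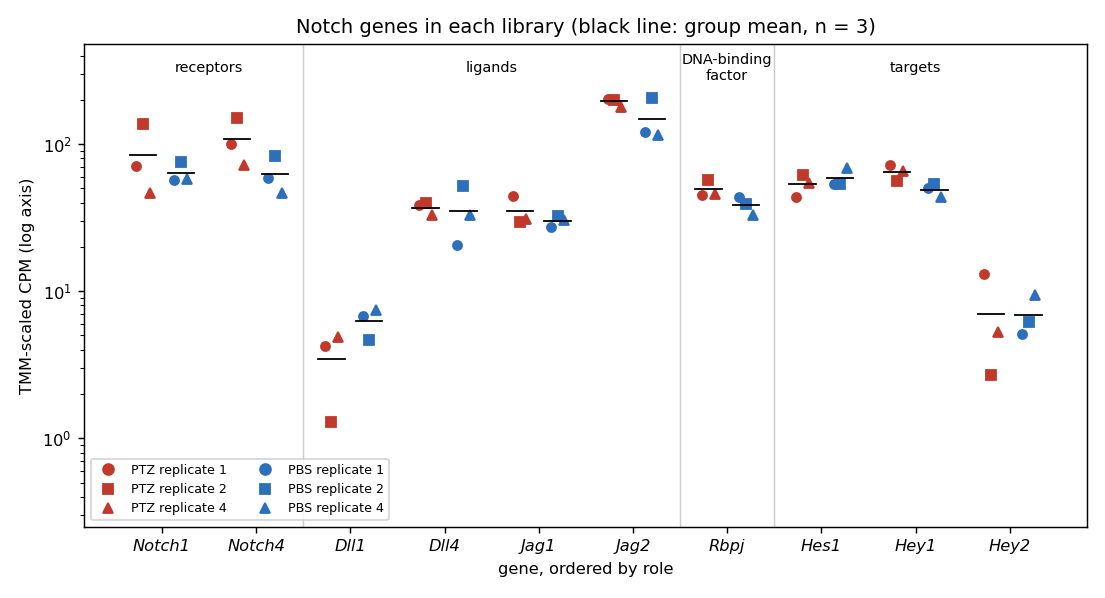
The plot shows TMM-scaled CPM on a log axis for the 10 Notch genes, with PTZ libraries in red and PBS libraries in blue, a marker shape per replicate number and a black line for the mean of 3 libraries. Jag2 stands highest, near 200 CPM in the PTZ libraries, Dll1 and Hey2 lowest, and red and blue points overlap for all genes but Rbpj and Hey1.

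Sequence near the start of Hey2, Notch4 and Dll1 is shown because Rbpj acts on its targets through a short DNA site and the immediate early AP-1 factors through another. RefSeq promoter windows of GRCm38.p6, each from 250 bases before to 50 after an annotated start, were found for 8 of the 10 genes, all but Hes1 and Hey1, in 10 windows. On both strands 3 motifs were searched: GTGGGAA, the core of the RBPJ site, TGANTCA, the AP-1 site, and CACGTG, an E-box of the kind that Hes and Hey proteins can bind. Of all 32851 windows of 300 bases, 6.38% held the first, 7.81% the second and 7.15% the third. The RBPJ core was found in Hey2 alone, at 2 places, the AP-1 letters in Dll1 and Notch4, and the E-box letters in none of these windows. Capitals mark the matches, and all lines run 5′ to 3′ on the gene's strand. The lines are Hey2 upstream (chr10:30842834-30843033, minus strand), Hey2 at its RefSeq start (chr10:30842769-30842798, minus strand), Notch4 at its RefSeq start (chr17:34564280-34564309, plus strand) and Dll1 upstream (chr17:15377023-15377052, minus strand). The upstream Hey2 match begins 207 bases before the RefSeq start and reads as the reverse complement. The Dll1 match begins 109 bases before the RefSeq start of 1 of its 2 windows. The RefSeq starts near these matches differ from the GENCODE gene starts given below.
Hey2 upstream: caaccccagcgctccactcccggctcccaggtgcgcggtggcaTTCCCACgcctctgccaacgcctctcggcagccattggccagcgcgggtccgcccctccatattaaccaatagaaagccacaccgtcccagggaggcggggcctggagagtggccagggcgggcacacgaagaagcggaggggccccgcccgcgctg
Hey2 start: tgggctgcagcGTGGGAAagaacctccagg
Notch4 start: aggacattgtgTGACTCAggaaacagctca
Dll1 upstream: caaagagccacTGATTCAgcctcgcacaat
A match of letters is a description and does not show that a factor binds there.

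Among the receptors, Notch4 had the largest positive difference of the 10 genes. Notch4 (ENSMUSG00000015468, protein coding, chromosome 17, 34564268 to 34588503, plus strand, GRCm38) stood at 100.5, 150.9 and 72.3 CPM in PTZ libraries 1, 2 and 4, against 58.6, 82.5 and 46.6 CPM in PBS libraries 1, 2 and 4. PTZ library 2 was the highest of the 6, and the groups overlapped because PTZ library 4 lay below PBS library 2. The mean was 107.9 ± 39.8 CPM in PTZ and 62.6 ± 18.3 CPM in PBS (SD, n = 3 each). The log2 fold change was 0.79 (SE 0.31, edgeR's quasi-likelihood adjusted p = 0.668, unadjusted p = 0.0289), so the difference did not pass over all genes. Between libraries of equal number the ratio of PTZ to PBS was 1.72, 1.83 and 1.55 in pairs 1, 2 and 4, thus above 1 in 3 of 3 pairs, which held for 3 of the 10 Notch genes and for 18.5% of all genes. With the replicate number as a block, Notch4's adjusted p was 0.273 in edgeR, which called 0 genes. It was 0.0493 in DESeq2, where the gene passed narrowly, among 207 genes called of the 13768 kept. Without PTZ replicate 2 the log2 fold change was 0.42 and the unadjusted p was 0.181. Without PBS replicate 1 they were 0.74 and 0.0808, and without PBS replicate 4 they were 0.58 and 0.12. Leaving out any of the other libraries gave a log2 fold change above 0.79. It was 0.84 (unadjusted p = 0.0419) without PTZ replicate 1 and 1.003 (unadjusted p = 0.00874) without PTZ replicate 4. The value without PBS replicate 2 was 1.003 (unadjusted p = 0.0159). In edgeR's quasi-likelihood test the adjusted p was at least 0.569 in all 6 cases.

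Notch1, the receptor best known from angiogenesis, lay at a like level of reads but its groups overlapped widely. Notch1 (ENSMUSG00000026923, protein coding, chromosome 2, 26457903 to 26516663, minus strand) stood at 70.9, 136 and 46.7 CPM in PTZ libraries 1, 2 and 4, against 57.2, 75.4 and 58.0 CPM in PBS libraries 1, 2 and 4. PTZ libraries held both the highest and the lowest value of the 6. The PTZ libraries averaged 84.6 ± 46.4 CPM and the PBS libraries 63.5 ± 10.3 CPM, and the log2 fold change was 0.41 (SE 0.35, adjusted p = 0.818). The difference rested on PTZ replicate 2: without that library the log2 fold change was -0.16. Without PTZ replicate 4 it was 0.70. PTZ library 2, the highest for both receptors, also had the highest summed level of endothelial markers and the lowest of pericyte markers among the PTZ libraries. Ly6c1 alone gave 8504 of the 17225 CPM in that endothelial sum. Ly6c1, Flt1, Cldn5, Erg and Esam were highest of the 6 libraries there, while Pecam1, Cdh5, Kdr, Emcn and Tek were not. Tek was lowest there, at 337.8 CPM.

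Per kb of exon, Notch4 was the more abundant receptor in every library. Its level per kb over that of Notch1 was 2.50, 1.95 and 2.73 in PTZ libraries 1, 2 and 4, against 1.81, 1.93 and 1.42 in PBS libraries 1, 2 and 4, with no overlap between the groups although PTZ library 2 and PBS library 2 were nearly equal. This ratio was 1 of 9 compared and was chosen after the values were seen. The exact 2-sided permutation p was 0.1, the smallest that 3 libraries against 3 allow, and with the 9 ratios adjusted together it cannot pass. Of the summed level per kb of Notch1 to Notch4, Notch4 took 57.2% to 69.7% over the 6 libraries, Notch1 25.5% to 40.2%, Notch3 1.20% to 6.28% and Notch2 0.804% to 3.34%. These ratios and shares depend on the length used, here all annotated exons merged. On that length the mean over 6 libraries was 10.6 CPM per kb for Notch4 and 5.21 for Notch1. With the longest principal transcript as the length, the means were 12.9 and 7.81.

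**Figure D2:**
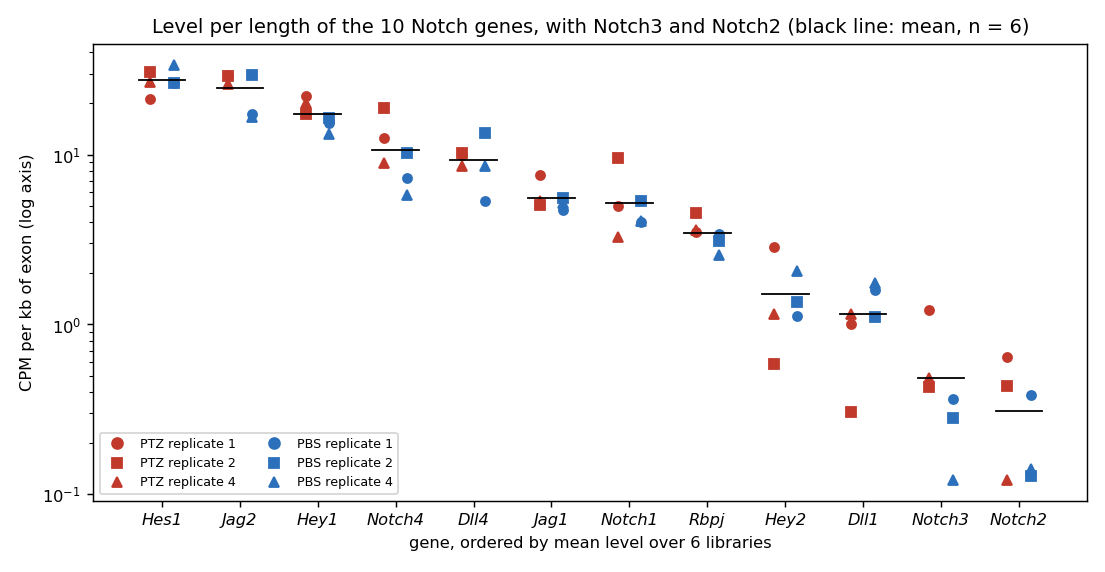
The plot orders the 10 Notch genes, with the receptors Notch3 and Notch2, by mean CPM per kb of exon on a log axis. Points are libraries, PTZ in red and PBS in blue, and the black line is the mean over 6 libraries. Hes1, Jag2 and Hey1 stand highest, and Notch3 and Notch2 have means under 0.5 CPM per kb.

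Of the ligands, Jag2 had the most reads of all 10 genes and Dll1 the fewest. Jag2 (ENSMUSG00000002799, protein coding, chromosome 12, 112907819 to 112929776, minus strand), a Jagged-family ligand, stood at 204, 201 and 180.1 CPM in PTZ libraries 1, 2 and 4, against 121, 206 and 116 CPM in PBS libraries 1, 2 and 4. The PTZ libraries lay close together, and PBS library 2 was above all of them while the other PBS libraries were well below. The PTZ mean was 195 ± 13.0 CPM and the PBS mean 148 ± 50.4 CPM, with a log2 fold change of 0.40 (SE 0.26, adjusted p = 0.764). Without PBS replicate 2 the value was 0.68 (adjusted p = 0.569), and without PBS replicate 4 it was 0.23.

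Jag1 (ENSMUSG00000027276, protein coding, chromosome 2, 137081456 to 137116644, minus strand), the other Jagged ligand, stood at 44.1, 29.6 and 31.0 CPM in PTZ libraries 1, 2 and 4, against 27.4, 32.4 and 30.4 CPM in PBS libraries 1, 2 and 4. PTZ library 1 stood apart from the other 5, and without it the log2 fold change of 0.22 (SE 0.26, adjusted p = 0.879) became 0.01. PTZ library 1 also had the highest level of Hey2, Notch3 and Heyl and the highest summed level of smooth muscle markers. The summed levels of pericyte and fibroblast markers were instead highest in PTZ library 4, where Jag1 was at 31.0 CPM. The part of mural cells in these values was not tested.

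Dll4 (ENSMUSG00000027314, protein coding, chromosome 2, 119325784 to 119335962, plus strand), the Delta-like ligand of arterial and sprouting endothelium, stood at 38.3, 39.5 and 32.9 CPM in PTZ libraries 1, 2 and 4, against 20.5, 51.5 and 33.0 CPM in PBS libraries 1, 2 and 4. The PTZ values fell inside the range of the PBS values, and the log2 fold change was 0.08 (SE 0.33, adjusted p = 0.973). Its sign turned without PBS replicate 1 (-0.20), without PTZ replicate 2 (-0.01) and with libraries scaled to endothelial markers (-0.01), and without PBS replicate 2 it was 0.43. An antisense transcript, Gm14207, shares 214 exonic bases with Dll4, or 5.56% of its exons, and had 326 to 1060 reads in PTZ and 492 to 561 in PBS, while Dll4 itself had 398 to 525 in PTZ and 328 to 522 in PBS. No source used here gives the strand setting of the counting, so how reads from the shared bases were assigned is uncertain.

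Dll1 (ENSMUSG00000014773, protein coding, chromosome 17, 15367354 to 15376872, minus strand), a Delta-like ligand, stood at 4.25, 1.29 and 4.88 CPM in PTZ libraries 1, 2 and 4, against 6.74, 4.64 and 7.41 CPM in PBS libraries 1, 2 and 4. These levels rest on 58, 13 and 78 reads in PTZ and 108, 47 and 98 reads in PBS. It was the gene with the largest negative difference of the 10, a log2 fold change of -0.84 (SE 0.65, adjusted p = 0.799). PTZ library 4 lay just above PBS library 2, so the groups overlapped, and PTZ was lower in 3 of 3 numbered pairs, which held for 16.6% of all genes. Without PTZ replicate 2 the value was -0.50. The antisense gene A930024N18Rik covers 20.6% of Dll1's exon length and had at most 26 reads in a library.

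**Figure D3:**
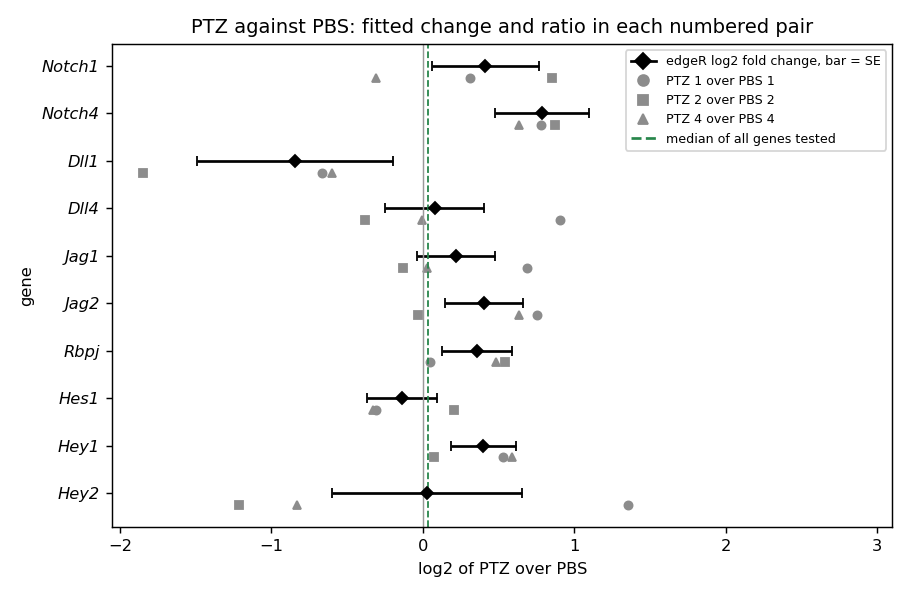
The plot gives, for each of the 10 genes, the edgeR log2 fold change of PTZ over PBS as a diamond with its SE, and below it in grey the log2 ratio of PTZ to PBS in the pairs numbered 1, 2 and 4. The green dashed line is the median of all genes tested. Notch4 has its 3 pairs close together on the positive side, while the pairs of Hey2, Dll4 and Notch1 lie on both sides of 0.

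Rbpj (ENSMUSG00000039191, protein coding, chromosome 5, 53466152 to 53657362, plus strand), which carries the signal of all Notch receptors to DNA, was the first of the pair whose groups did not overlap. It stood at 44.9, 57.5 and 45.9 CPM in PTZ libraries 1, 2 and 4, against 43.5, 39.4 and 32.9 CPM in PBS libraries 1, 2 and 4. The gap was narrow, since PTZ library 1 and PBS library 1 were nearly equal. The PTZ libraries averaged 49.4 ± 6.98 CPM and the PBS libraries 38.6 ± 5.37 CPM, and the log2 fold change was 0.36 (SE 0.23, adjusted p = 0.770). Without PTZ replicate 2 it was 0.19, and without PBS replicate 4 it was 0.22.

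Hey1 (ENSMUSG00000040289, protein coding, chromosome 3, 8663359 to 8667256, minus strand), a transcriptional repressor and Notch target of arterial endothelium, was the other gene without overlap. It stood at 72.4, 56.4 and 65.5 CPM in PTZ libraries 1, 2 and 4, against 50.2, 53.7 and 43.5 CPM in PBS libraries 1, 2 and 4. The lowest PTZ library was only slightly above the highest PBS library. The PTZ mean was 64.7 ± 8.03 CPM and the PBS mean 49.1 ± 5.21 CPM, with a log2 fold change of 0.40 (SE 0.22, adjusted p = 0.716), and over the settings tried the value lay between 0.27 and 0.45 with an adjusted p of at least 0.510.

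Hes1 (ENSMUSG00000022528, protein coding, chromosome 16, 30064384 to 30067796, plus strand), a repressor that answers Notch and other signals in many cell types, did not share the sign of Hey1. It stood at 43.5, 62.0 and 54.8 CPM in PTZ libraries 1, 2 and 4, against 54.0, 53.8 and 68.9 CPM in PBS libraries 1, 2 and 4. The groups overlapped, with a PTZ mean of 53.5 ± 9.36 CPM and a PBS mean of 58.9 ± 8.64 CPM, and the log2 fold change was -0.14 (SE 0.23, adjusted p = 0.922). Leaving out 1 library at a time it lay between -0.30, without PTZ replicate 2, and -0.01, without PTZ replicate 1. The ratio of Hey1 to Hes1 per kb was 1.04, 0.567 and 0.745 in PTZ and 0.581, 0.623 and 0.394 in PBS, with overlap between the groups (exact 2-sided permutation p = 0.3).

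Hey2 (ENSMUSG00000019789, protein coding, chromosome 10, 30832359 to 30842801, minus strand), the close relative of Hey1 whose promoter letters are shown above, was far lower, with 4.89 times as much in the highest library as in the lowest. It stood at 13.1, 2.68 and 5.32 CPM in PTZ libraries 1, 2 and 4, from 179, 27 and 85 reads, against 5.12, 6.22 and 9.45 CPM in PBS libraries 1, 2 and 4, from 82, 63 and 125 reads. PTZ libraries were both the highest and the lowest of the 6. The log2 fold change was 0.02 (SE 0.63, adjusted p = 0.998), and it was -0.04 with the authors' scaling, -0.78 without PTZ replicate 1, -0.16 without PBS replicate 1, -0.09 without PBS replicate 2 and 0.36 without PTZ replicate 2.

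Ordered by level per kb of exon over the 6 libraries, the genes stood at 27.6 ± 4.22 CPM per kb for Hes1, 24.6 ± 6.02 for Jag2, 17.4 ± 3.21 for Hey1 and 10.6 ± 4.62 for Notch4 (SD, n = 6). Dll4 followed with 9.33 ± 2.64 CPM per kb, Jag1 with 5.57 ± 1.02, Notch1 with 5.21 ± 2.26, Rbpj with 3.45 ± 0.639, Hey2 with 1.52 ± 0.808 and Dll1 with 1.15 ± 0.511. The ranges of all neighbours in this order overlapped, so the order of neighbours is not separated by the spread between libraries. The order of the means also differed between the groups at 2 places. Jag2 averaged 28.0 ± 1.87 CPM per kb and Hes1 26.2 ± 4.59 in PTZ, while Jag2 averaged 21.2 ± 7.23 and Hes1 28.9 ± 4.24 in PBS (SD, n = 3 each). Notch4 averaged 13.4 ± 4.94 CPM per kb and Dll4 9.58 ± 0.919 in PTZ, while Notch4 averaged 7.76 ± 2.27 and Dll4 9.08 ± 4.06 in PBS. Within a library, Jag2 was above Hey1, Dll4 above Jag1 and Rbpj above Hey2 in 6 of 6 libraries. The lengths are those of all annotated exons merged. With the longest principal transcript as the length, Rbpj moved up to the 6th place and Jag1 down to the 8th, and the other 8 kept their places.

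The rest of the Notch pathway was described by 57 further genes in lists by role, of which 48 had enough reads to be tested. None passed over all genes in edgeR's quasi-likelihood test, where the smallest adjusted p was 0.648, and the unadjusted p was under 0.05 for 1 gene with the higher level in PTZ and for 0 with the lower, against 3.83% and 3.38% of all genes. The log2 fold change was positive for 34 of the 48, against 52.7% of all genes, with a median of 0.15 against 0.03 over all genes. Leaving out 1 library at a time, between 28 and 36 of the 48 were positive. With libraries scaled to endothelial markers 24 of the 48 were positive. In 4 of these 48 genes, Maml1, Notch3, Crebbp and Ctbp1, the lowest PTZ value exceeded the highest PBS value, against 7.30% of all genes. In 3, Aph1c, Dtx4 and Hdac1, the order was reversed, against 7.04% of all genes. Such shares are near those of all genes, so a lack of overlap does not set these genes apart. The 1 gene at an unadjusted p under 0.05 was Maml1, a coactivator of the Mastermind family that joins the intracellular part of Notch and Rbpj on DNA. Maml1 stood at 21.7, 19.6 and 20.5 CPM in PTZ libraries 1, 2 and 4, against 12.3, 11.6 and 8.99 CPM in PBS libraries 1, 2 and 4, with no overlap between the groups. Its log2 fold change was 0.91 (SE 0.32, adjusted p = 0.648).

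Other nuclear partners had smaller values. Of the 7 coactivators 5 had positive values, among them the acetyltransferase genes Crebbp (log2 fold change 0.46, SE 0.23) and Kat2b (0.40, SE 0.30). Of the 7 corepressors tested, 5 were positive, with Ctbp1 at 0.40 (SE 0.21) and Ncor1, a nuclear receptor corepressor, at 0.27 (SE 0.22), while Hdac1, a histone deacetylase, stood at -0.43 (SE 0.21). Hdac1 had 90.5, 109.5 and 109.5 CPM in PTZ, against 158, 118 and 139 CPM in PBS, so that all PTZ libraries lay below all PBS libraries, as 7.04% of all genes did.

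Genes that cut or glycosylate the receptors had medians near 0. The 10 genes of receptor cleavage had a median log2 fold change of 0.07, with 6 positive, among them Psen2, a presenilin of the gamma-secretase (0.39, SE 0.29), and Furin, the protease that cuts the receptor on its way to the surface (0.30, SE 0.24). Aph1c, a gamma-secretase subunit with a close paralog in Aph1b, stood at 3.88, 3.38 and 0.376 CPM in PTZ, against 9.74, 4.44 and 8.01 CPM in PBS (-1.55, SE 0.81, adjusted p = 0.709), with no overlap. Because Aph1b and Aph1c are so alike, how their reads were shared out is uncertain. The 5 glycosylation genes had a median of -0.04, with Lfng, a Fringe enzyme that tunes the receptor's choice of ligand, at -0.32 (SE 0.23) and Pofut1, which adds fucose to the receptor, at -0.39 (SE 0.29). Rfng, another Fringe enzyme, was at 0.09 (SE 0.32).

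All 7 genes of ligand ubiquitination and uptake had positive values, against 52.7% of all genes, with a median of 0.23, and none stood at an unadjusted p under 0.05. Epn2, an epsin of endocytosis, was at 0.32 (SE 0.22), and the ubiquitin ligase genes Mib2 and Neurl1b were at 1.32 (SE 1.06) and 0.69 (SE 0.63) from few reads. Of 8 tested genes of receptor turnover and inhibition 5 were positive, with the ubiquitin ligase genes Fbxw7 at 0.41 (SE 0.24) and Itch at 0.40 (SE 0.32). Dtx4, a Deltex ubiquitin ligase, stood at 2.49, 3.97 and 1.25 CPM in PTZ, against 6.74, 4.84 and 7.78 CPM in PBS (-1.33, SE 0.65, adjusted p = 0.700), with all PTZ libraries below all PBS libraries.

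**Figure D4:**
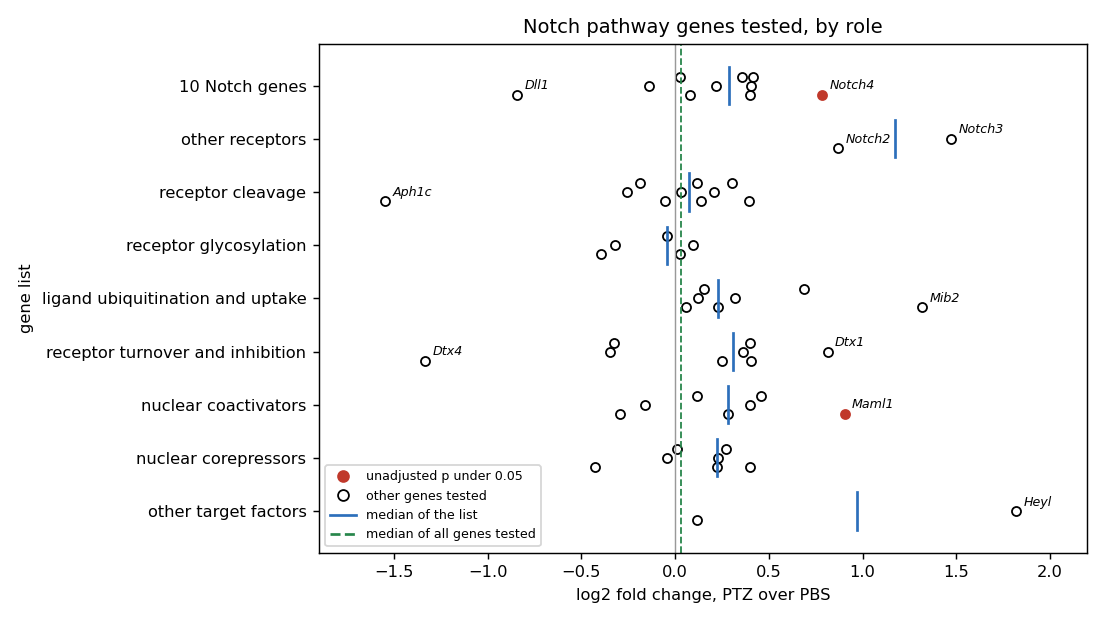
Each point is a tested gene, placed by its log2 fold change of PTZ over PBS and grouped by role, with the 10 Notch genes on top. Red points had an unadjusted p under 0.05, blue lines are list medians, and the green dashed line is the median of all genes. Notch4 and Maml1 are the 2 red points, and Notch3 and Heyl lie farthest to the right.

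The receptors and targets known from mural cells had the largest positive values, from low counts. Notch3, the receptor of pericytes and smooth muscle, stood at 9.81, 3.47 and 3.94 CPM in PTZ libraries 1, 2 and 4, against 2.94, 2.27 and 0.983 CPM in PBS libraries 1, 2 and 4, with no overlap (log2 fold change 1.47, SE 0.74, adjusted p = 0.702). Heyl, a Hey-family factor of mural cells, stood at 6.002, 2.18 and 4.44 CPM in PTZ, against 0.0625, 0.790 and 2.72 CPM in PBS, where the lowest value is 1 read (1.82, SE 1.08, adjusted p = 0.742). Its groups overlapped, since PTZ library 2 lay below PBS library 4. Notch2 had 6.95, 4.67 and 1.31 CPM in PTZ and 4.12, 1.38 and 1.51 CPM in PBS (0.87, SE 0.83). Hes6 was at 0.12 (SE 0.41). The 15 tested markers of pericytes and smooth muscle all had positive values too, against 52.7% of all genes, and 5 of them had the higher level in PTZ at an unadjusted p under 0.05, against 3.83% of all genes. They summed to 2380.5, 1209.96 and 2258 CPM in PTZ libraries 1, 2 and 4, against 665, 1198 and 1382 CPM in PBS libraries 1, 2 and 4. The part of mural cells in the values of Notch3 and Heyl was not tested. The 9 genes with too few reads were the ligand genes Dll3, Dlk1, Dlk2 and Dner, the factors Hes2, Hes5 and Hes7, the inhibitor gene Nrarp and Rbpjl, and Hes5 had 0 reads in all 6 libraries.

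When each library was scaled to the 10 endothelial markers instead of by TMM, a setting chosen after seeing the data, the median of all genes moved to -0.12 on the log2 scale. The log2 fold change of Notch4 was then 0.63 (unadjusted p = 0.0682, adjusted p = 0.805), below its 0.79 with TMM and no longer at an unadjusted p under 0.05. That of Rbpj was 0.17 with this scaling and 0.36 with TMM, that of Hey1 0.27 and 0.40, and that of Jag2 0.30 and 0.40. A change of scaling multiplies each library by 1 factor, so values relative to the all-gene median tend to change little by construction. Notch4 lay 0.75 above that median with either scaling. The shift was not the same for every gene. Relative to that median, Hey2 stood at -0.009 with TMM and 0.125 with this scaling, and Dll4 at 0.044 and 0.105.

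For Notch4 and Hey1, the genes of the 10 with the smallest unadjusted p, the genes with the most similar profile over the 6 libraries were sought among 9725 genes with a mean of at least 5 CPM. Likeness was the root mean square difference of log2 CPM centred on each gene's mean, which also counts the difference between the groups. Closest to Notch4 were Ilkap (0.114), Magi1 (0.117), Egln2 (0.137), Rasip1 (0.156) and Mtmr14 (0.164). Of the other Notch genes Notch1 came nearest to Notch4, in place 199 with 0.307, then Jag2 in place 229 with 0.318. Rasip1, a vascular regulator of Ras-family signalling, averaged 217 CPM in PTZ and 132 CPM in PBS. All 5 genes had the same order of libraries within each group as Notch4. Their choice by likeness makes a shared order and a higher PTZ level likely, so neither is a separate result. Closest to Hey1 were Lsm14b (0.0401), Znfx1 (0.0451), Ppp4r2 (0.0507), Zfp106 (0.0548) and Frmd6 (0.0549), and the nearest Notch gene was Jag1, in place 462 with 0.177.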

How the data were processed

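Per the labels' protocols, RNA was extracted with Trizol, and a NEBNext low-input kit served for the libraries. The build GRCm38 and the tools HTSeq, edgeR, TopHat2 2.1.1 and CASAVA are named, without roles, in the submitters' processing notes. The authors deposited raw read counts per Ensembl gene, and a scaled signal per library that equals the counts divided by 1 factor per library (100% of values whole within 0.01 reads after multiplying back), used only as an alternative scaling. The 5 summary rows that name no gene, 16.1% to 22.9% of reads, were left out. Names, coordinates and exon lengths came from GENCODE M21.

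The software was DESeq2 1.42.0, limma 3.58.1, edgeR 4.0.16 and R 4.3.3. Of 34777 genes with any read, filterByExpr (count of 10, total of 15) kept 13768. They were scaled by TMM and tested 2-sided with edgeR's quasi-likelihood test on the group alone, with Benjamini-Hochberg adjustment over all genes tested. The biological coefficient of variation was 0.470. SE values are the fold change over the root of the test statistic. No 2 libraries of a group agreed within sampling noise (chi-square per degree of freedom 26.4 to 54.5). Replicate numbers come from the titles. Across genes, the deviations of equal-numbered libraries from their group means had correlations of 0.191, 0.238 and 0.246, so ratios were also given for equal-numbered pairs. The labels do not say what the numbers mark, so the main test used the group alone and the replicate block served as an alternative. The choice matters for precision: in edgeR the SE of Notch4 was 0.18 with the block and 0.31 without it.

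The 10 genes and all lists were chosen with earlier results of these data known. Named from each list were up to 3 members with the smallest unadjusted p, every member under 0.05, and Notch3 and Heyl in any case. The antisense genes, and the ratio of Notch4 to Notch1, were picked after their values were seen.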

Additional observations from a re-analysis of the deposited data

How the results depend on the processing

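The count of genes called at an adjusted p under 0.05, 0 in the main test, was 76 with DESeq2 (53 higher, 23 lower), 207 with DESeq2 and the replicate block (130 and 77), 121 without the low-count filter, 1 with limma-voom, 1 when scaled to endothelial markers, and 0 to 8 when leaving out 1 library each, with 8 without PBS replicate 2. It was 0 with the edgeR replicate block. Of the 10 Notch genes 1 stood at an unadjusted p under 0.05; it was 0 with endothelial scaling, 2 with DESeq2 and the replicate block, and 0 to 2 leaving out libraries. Of the other pathway genes 1 stood there in the main test. Their count was 4 with DESeq2, 4 with limma-voom, 2 with the authors' scaling and 2 without the filter. It was 3 with the edgeR replicate block, 6 with DESeq2 and the block, and 1 to 4 leaving out libraries. The share of all genes at an unadjusted p under 0.05 was counted in the main test alone, at 7.21%. The counts under other settings therefore have no background and give no result about these genes. The log2 fold change of Hey2 turned to -0.13 with limma-voom, -0.041 with the authors' scaling, -0.021 without the filter, and -0.24 and -0.25 with the replicate block in edgeR and DESeq2, and lay between -0.78 and 0.36 leaving out libraries. Dll4 turned to -0.014 with endothelial scaling and lay between -0.20 and 0.43 leaving out libraries, and Notch1 between -0.16 and 0.70. Of 99 values of the 10 genes under other settings 92 kept sign and side of the threshold, and of 60 leaving out a library 54 did. The replicate block changed 1 call among the 10, that of Notch4 in DESeq2. The cause of these shifts was not tested. With a mean of at least 5 CPM required, Dll1 was not tested. Dll1 and Hey2 have from 13 to 179 reads in a library, which limits their precision.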
